A study of Mus musculus with 8 samples.

Results

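The comparison described here set E14 mouse embryonic stem cells with the hairpin shDnmt3L3 against the same cells with the hairpins shDnmt3L1 or shDnmt3L2, all 3 directed at Dnmt3l. The arrays were chosen by their labels, as the 2 arrays of shDnmt3L3 and the 4 arrays of the other hairpins, which make up 6 of the 8 arrays of the series. The remaining 2 arrays carried a control hairpin against GFP (shGFP) and served only to show on which side of the control a gene lay. The series title places Dnmt3L in the differentiation of stem cells into germ cells.

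Each group was 1 line, E14, with 1 hairpin. All 4 groups, the control included, were transfected with a hairpin and held in puromycin for 3 days. Their medium contained serum at 15% and leukaemia inhibitory factor (LIF), the cytokine that keeps these cells undifferentiated, at 1500 U/ml. The 2 arrays of each group are labelled as duplicates. Whether these were separate cultures is not given, and a p-value here reflects only how far such duplicates differ, which may be technical variation. Each depth of knockdown came with its own hairpin. An effect of the Dnmt3l level and an effect of the shDnmt3L3 sequence on other transcripts therefore cannot be told apart.

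DNMT3L has no catalytic activity of its own and binds DNMT3A and DNMT3B, the enzymes that place new methyl groups on DNA. Embryonic stem cells in serum and LIF move between a naive state, marked by factors such as KLF4 and TFCP2L1, and states closer to the epiblast of the implanting embryo, marked by OTX2, POU3F1, FGF5 and high DNMT3B. LIF acts through STAT3, while NODAL, Wnt and ERK signals shape the passage out of the naive state.

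Between 18111 and 19241 of 45281 probes were detected on an array. Across the 10930 genes tested, duplicate arrays correlated at 0.9960 to 0.9969, the shDnmt3L1 arrays with those of shDnmt3L2 at 0.9925 to 0.9926, and shDnmt3L3 with either of them at 0.9773 to 0.9806, which is a description across genes that are not independent. The arrays carried the general marks of embryonic stem cells, with Pou5f1, Nanog and Sox2 detected on all 8. Values are normalized log2 intensities of 1 probe a gene, and a difference is shDnmt3L3 minus the mean of shDnmt3L1 and shDnmt3L2, each hairpin weighted equally. A gene was called where limma's adjusted p was under 0.05.

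Dnmt3l, the gene the hairpins target, was lowest with shDnmt3L3. It measured 9.34 and 9.19 in shDnmt3L3, 10.51 and 10.45 in shDnmt3L1, 10.73 and 10.84 in shDnmt3L2, and 11.88 and 11.97 in shGFP. No group overlapped another. The difference of shDnmt3L3 from the weaker hairpins was -1.37 ± 0.08 (SE, 2 arrays against 4, limma, adjusted p = 5.26e-06), which leaves 38.7% of their level, and the other Dnmt3l probe gave -1.52.

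**Figure D1:**
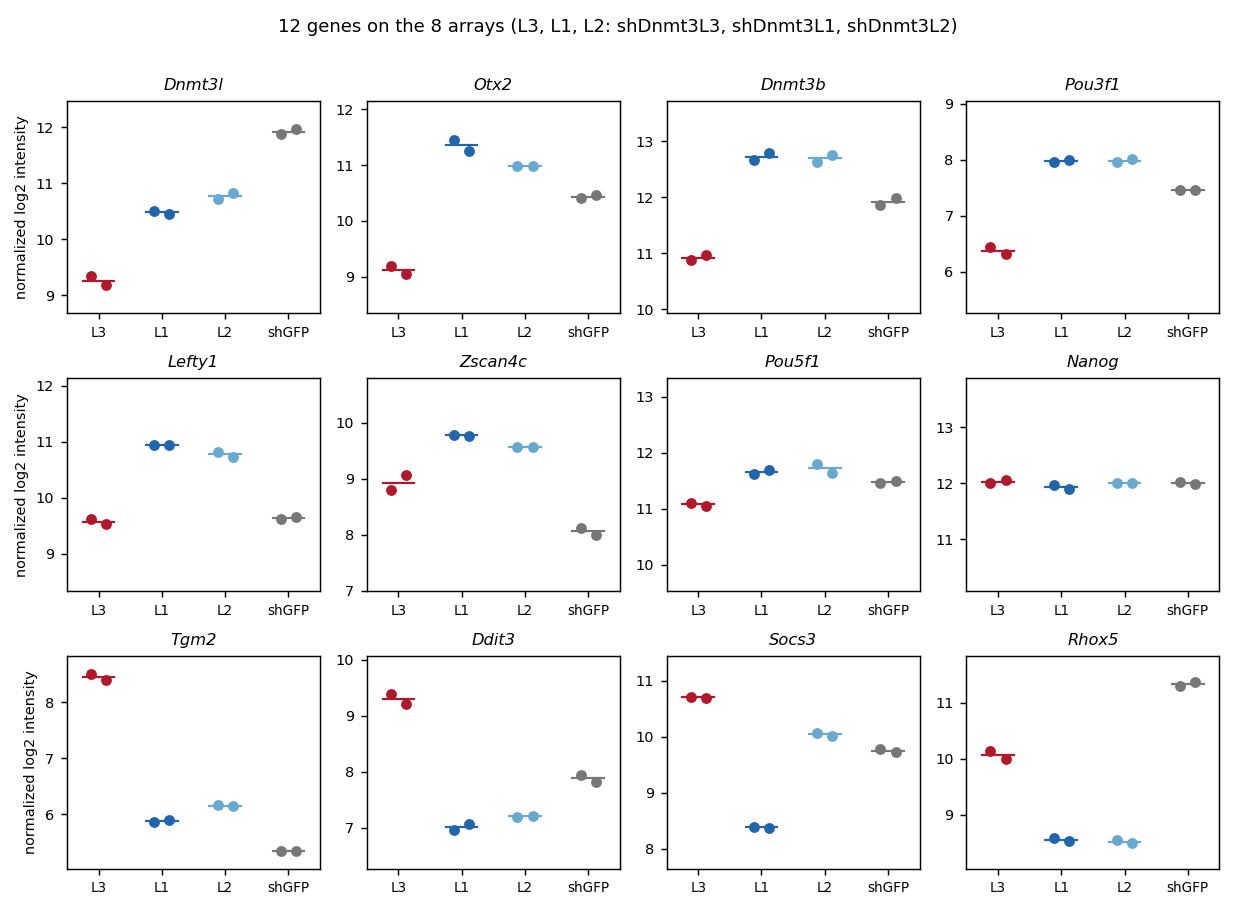
Normalized log2 intensity of 12 genes (y axis, the same span in every panel) on each array (points) by group (x axis), with the group mean as a line. Dnmt3l, Otx2, Dnmt3b and Pou3f1 were lowest on both shDnmt3L3 arrays, Tgm2, Ddit3 and Socs3 were highest there, and the Nanog arrays of all groups lay between 11.89 and 12.05.

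Of the 10930 genes, 4757 (43.5%) were called, 2442 higher (22.3%) and 2315 lower (21.2%) in shDnmt3L3. With a difference of at least 1.5-fold, 602 (5.51%) were called higher and 597 (5.46%) lower. With at least 2-fold these were 117 (1.07%) and 158 (1.45%). Both shDnmt3L3 arrays lay above all 4 arrays of the other hairpins in 26.2% of genes and below them in 25.2%, and 4482 of the calls were among these. The contrast between shDnmt3L1 and shDnmt3L2 called 880 genes (8.05%). Against shDnmt3L1 alone 17.7% of genes were called higher and 17.6% lower, and against shDnmt3L2 alone 21.8% and 20.4%. Of the 4757 genes, 2994 were called with the same sign against each of them. When the hairpin entered as a random block, 2827 genes were called, 1442 higher and 1385 lower. That fit applies a correlation of 0.249 between arrays of the same hairpin to every gene. Its units are still arrays, and shDnmt3L3 is still a single hairpin. A call under it, here or in the lists below, is therefore no test over independent hairpins.

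**Figure D2:**
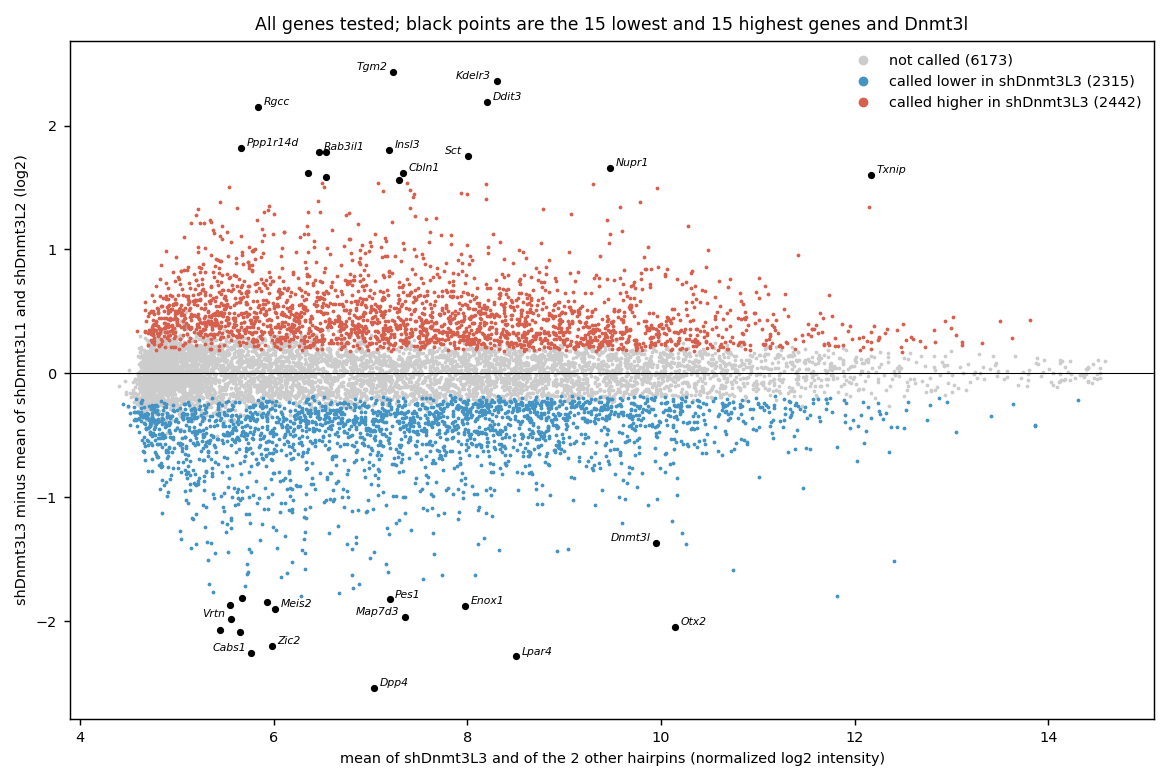
Difference of shDnmt3L3 minus the mean of shDnmt3L1 and shDnmt3L2 (y axis, log2) against the mean of both sides (x axis, normalized log2 intensity) for 10930 genes. Black points are the 15 lowest and 15 highest called genes and Dnmt3l, most of them labelled; points at the dim left edge can hold genes not detected on one side, whose fitted difference is not a measured fold.

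The largest decreases exceeded that of Dnmt3l itself. Dpp4, a membrane dipeptidyl peptidase, measured 5.80 and 5.74 in shDnmt3L3, 8.38 and 8.44 in shDnmt3L1, 8.22 and 8.18 in shDnmt3L2, and 7.55 and 7.55 in shGFP, a difference of -2.53 ± 0.06 (SE, limma, adjusted p = 4.35e-07). Both shDnmt3L3 arrays thus lay below the control and all 4 arrays of the weaker hairpins above it. Lpar4, a receptor for lysophosphatidic acid, measured 7.32 and 7.40 in shDnmt3L3, 9.63 and 9.64 in shDnmt3L1, 9.71 and 9.58 in shDnmt3L2, and 9.77 and 9.76 in shGFP (-2.28 ± 0.07). Here the weaker hairpins lay near the control and shDnmt3L3 stood alone.

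The transcription factor genes Zic2 (-2.20), Otx2 (-2.05) and Meis2 (-1.90) were also among the 15 lowest, as were the microtubule-binding protein gene Map7d3 (-1.96), the surface oxidase gene Enox1 (-1.88), the zinc finger gene Zfp608 (-1.84) and Pes1, a factor of ribosome assembly (-1.82). In shDnmt3L3, Zic2 measured 4.901 and 4.855, Meis2 4.921 and 5.211 and Zfp608 4.989 and 5.034. The lowest detected signals on those arrays were 4.842 and 4.812, so these 3 genes were near background there and their differences are uncertain in size. Fgf8, a growth factor of the gastrulating embryo, differed by -1.81 and was detected on 1 of 2 shDnmt3L3 arrays. The remaining 5 were not detected on either shDnmt3L3 array, and their signal was at least 4.19-fold lower for Cabs1, 3.64-fold for Aph1a, 3.29-fold for Vrtn and 3.14-fold for both Ttn, the giant muscle protein titin, and Samd9l. Other probes gave smaller values for Zic2 (-0.35) and Meis2 (-0.71), values of -0.75 and 0.26 for Zfp608, and -0.004 for Aph1a, a subunit of the gamma-secretase protease, so the Aph1a call rests on 1 of 2 probes and is lost without any 1 array of the weaker hairpins. Zfp608 stayed called, but its difference was -0.78 without shDnmt3L1 replicate 1, -0.745 without shDnmt3L2 replicate 1 and -0.76 without shDnmt3L2 replicate 2. All 15 were called against each weaker hairpin singly. Their selection for large differences outside all arrays of those hairpins made this nearly certain, so it is no further support.

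The largest increases were of similar size. Tgm2, the cross-linking enzyme transglutaminase 2, measured 8.51 and 8.39 in shDnmt3L3, 5.86 and 5.90 in shDnmt3L1, 6.16 and 6.15 in shDnmt3L2, and 5.34 and 5.35 in shGFP. Its difference of 2.44 ± 0.07 (SE, limma, adjusted p = 4.35e-07) was the highest of all called genes. Kdelr3, a receptor that returns proteins to the endoplasmic reticulum, measured 9.48 and 9.48 in shDnmt3L3, 6.81 and 6.92 in shDnmt3L1, 7.27 and 7.47 in shDnmt3L2, and 7.06 and 6.97 in shGFP (2.36 ± 0.08). The control lay between shDnmt3L1 and shDnmt3L2 in Kdelr3 and below both in Tgm2.

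Ddit3 (2.19) and Nupr1 (1.66), both regulators induced by stress, were among the 15 highest, with Txnip, an inhibitor of thioredoxin (1.60). So were the genes of 3 secreted peptides, Insl3 (1.81), Sct, which encodes secretin (1.76), and Cbln1 (1.62), and of the oviduct glycoprotein Ovgp1 (1.79). The others were Rgcc (2.15), Ppp1r14d (1.82), Rab3il1 (1.79), the cilium gene Cfap45 (1.62), the caveola coat gene Cavin1 (1.58) and Ppp1r3c, which targets a phosphatase to glycogen (1.56). Rgcc measured 6.86 and 6.96 in shDnmt3L3 and 7.02 and 7.29 in shGFP, was detected on both shDnmt3L1 arrays (5.08 and 4.79) and on neither shDnmt3L2 array, so the high value with shDnmt3L3 was close to the control. All 15 were called against each weaker hairpin singly, which the same selection made nearly certain.

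Set against the control, the 15 lowest genes had both shGFP arrays between shDnmt3L3 and the weaker hairpins in 8 cases, and on the far side of the weaker hairpins in 6. Of the 15 highest genes, shGFP lay between in 6 cases, beyond the weaker hairpins in 3 and beyond shDnmt3L3 in 1. In Meis2, Ovgp1 and Txnip it overlapped a weaker hairpin. In Kdelr3, Cbln1 and Ppp1r3c it lay between shDnmt3L1 and shDnmt3L2 and overlapped neither. These genes were picked for wide gaps, which leave more room for the control between the sides. The shares of these positions over all genes were not computed, so the counts describe the picked genes only.

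Genes of the formative and primed epiblast were lower together. Of 15 members measured, 14 were called lower and 0 higher, with a median difference of -1.34 beside 0.01 over all genes tested. Over all genes tested 21.2% were called lower and 22.3% higher, shares that apply beside each list count below. The exception was Cdh2, N-cadherin (0.18). Otx2, a homeobox factor of the epiblast and anterior brain, measured 9.19 and 9.05 in shDnmt3L3, 11.45 and 11.26 in shDnmt3L1, 10.99 and 10.98 in shDnmt3L2, and 10.41 and 10.46 in shGFP. Dnmt3b, the methyltransferase that DNMT3L assists, measured 10.87 and 10.96 in shDnmt3L3, 12.66 and 12.79 in shDnmt3L1, 12.63 and 12.77 in shDnmt3L2, and 11.86 and 11.98 in shGFP (-1.79 ± 0.08, SE, limma, adjusted p = 2e-06). In both genes the control lay between the deep knockdown and the weaker ones, with no overlap.

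Pou3f1, a POU factor of the primed epiblast, measured 6.45 and 6.31 in shDnmt3L3, 7.96 and 8.0 in shDnmt3L1, 7.96 and 8.01 in shDnmt3L2, and 7.46 and 7.46 in shGFP (-1.60 ± 0.07). Sall2, a zinc finger factor, differed by -1.80 and the carbonic anhydrase gene Car14 by -1.73. Fgf5, the classical epiblast growth factor marker, was detected on neither shDnmt3L3 array and on all other arrays, and was at least 2.56-fold lower. Against shGFP, 12 of the 15 members were called lower with shDnmt3L3, where 25.1% of all genes were. The mean of the weaker hairpins was called higher than shGFP in 11, where 25.9% of all genes were. Both of these comparisons share the shGFP arrays. With the hairpin as a random block, 13 of the 15 stayed called lower. Over all 10930 genes that block called 1442 higher and 1385 lower, which applies beside each later count under it.

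**Figure D3:**
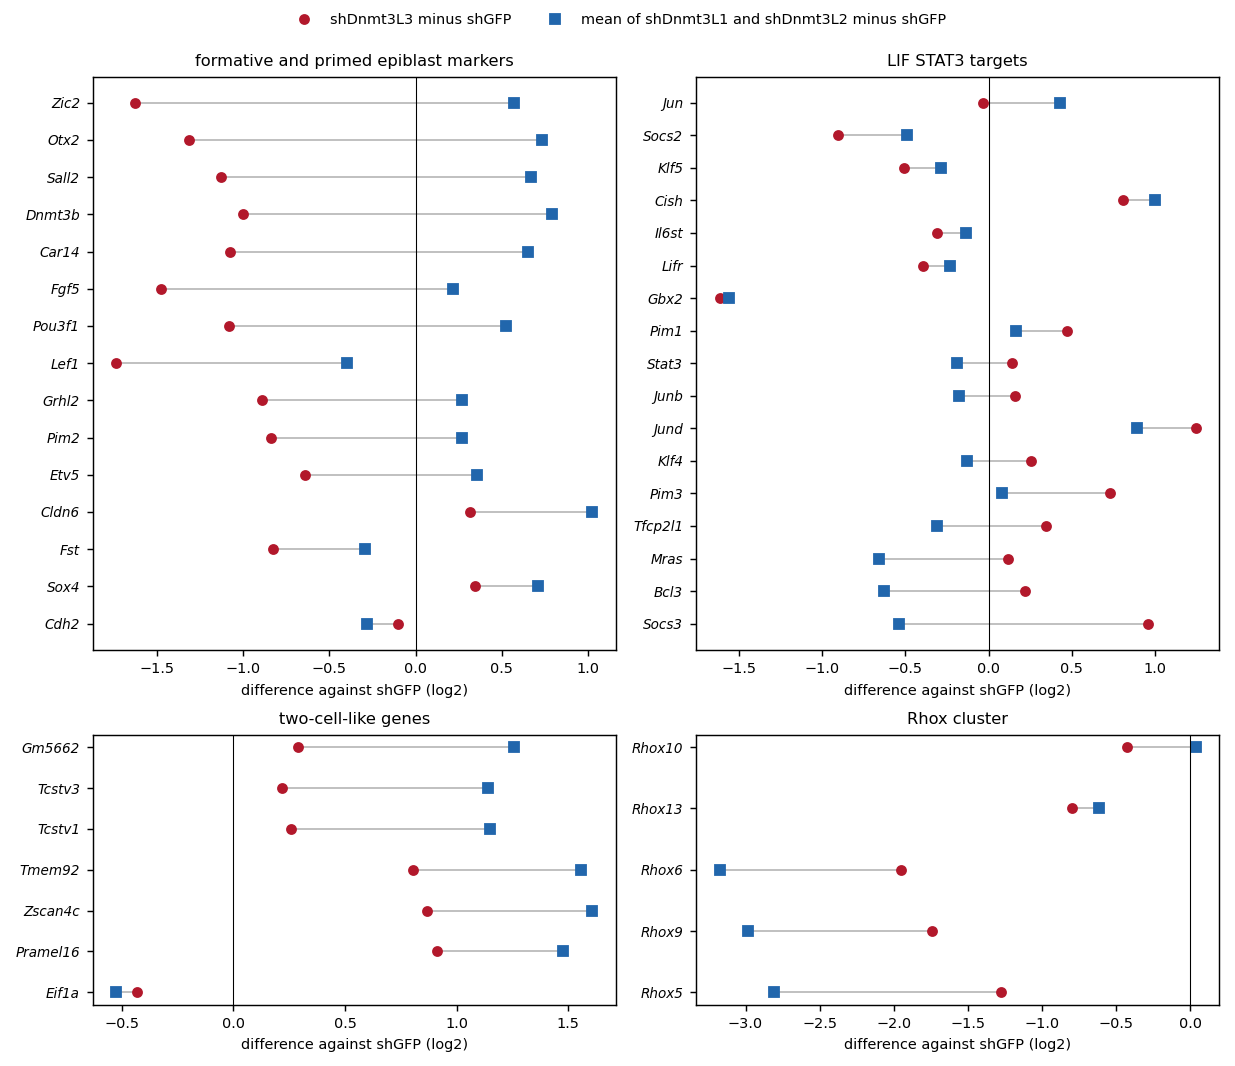
Difference against shGFP (x axis, log2) of shDnmt3L3 (circles) and of the mean of shDnmt3L1 and shDnmt3L2 (squares) for each measured member of 4 gene lists (rows). Most formative and primed markers lay left of 0 for shDnmt3L3 and right of it with the weaker hairpins, whereas Rhox5, Rhox6 and Rhox9 lay left of 0 in both, and farther with the weaker hairpins.

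The start regions of Dnmt3b, which was lower, and of Rhox5, which was higher and is described with its cluster, are printed to show how far CG content can differ between genes that moved. Each sequence runs from 250 bases before to 50 after the start (RefSeq, GRCm38.p6), with every CG in capitals. Dnmt3b (chr2:153649199-153649498, plus strand) holds 30 CG and Rhox5 (chrX:37754358-37754657, plus strand) holds 5. Over the 8840 tested genes with such a sequence the median was 20, and it was 18 in the 455 genes at least 1.5-fold lower and 17 in the 459 at least 1.5-fold higher. DNA methylation was not measured on these arrays.
Dnmt3b: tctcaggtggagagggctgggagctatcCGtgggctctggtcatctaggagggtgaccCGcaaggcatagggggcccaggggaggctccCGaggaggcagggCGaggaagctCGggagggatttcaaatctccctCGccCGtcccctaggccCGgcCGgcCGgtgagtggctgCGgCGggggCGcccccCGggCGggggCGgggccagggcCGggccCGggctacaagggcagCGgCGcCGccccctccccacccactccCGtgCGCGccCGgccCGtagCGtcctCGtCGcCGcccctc
Rhox5: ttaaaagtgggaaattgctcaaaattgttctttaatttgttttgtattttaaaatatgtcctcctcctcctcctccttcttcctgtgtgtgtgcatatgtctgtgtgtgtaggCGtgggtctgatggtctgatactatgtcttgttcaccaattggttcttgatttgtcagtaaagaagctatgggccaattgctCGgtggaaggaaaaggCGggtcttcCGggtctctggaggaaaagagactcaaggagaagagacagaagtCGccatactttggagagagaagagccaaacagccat

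The core pluripotency factors split. Of 15 general factors, 9 were called lower and 1 higher (median -0.37), and 6 and 1 with the hairpin as a random block. Pou5f1, the POU factor OCT4, measured 11.10 and 11.06 in shDnmt3L3, 11.62 and 11.69 in shDnmt3L1, 11.81 and 11.64 in shDnmt3L2, and 11.46 and 11.50 in shGFP (-0.61 ± 0.07, SE, limma, adjusted p = 0.000262). Lower values were also called for L1td1, an RNA-binding protein (-0.86), the let-7 inhibitor Lin28a (-0.63) and Dppa2 (-0.72), although the other Dppa2 probe gave 0.08. Nanog (0.06) and Sox2 (0.07) were not called, with Nanog between 11.89 and 12.05 on every array. The other Sox2 probe gave 0.48 and was called. Fgf4, the growth factor that stem cells secrete, was the 1 member called higher (0.62).

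Naive factors moved in both directions: 7 of 15 were called higher and 3 lower (median -0.02). The counts were 2 and 2 with the hairpin as a random block, which called 1442 and 1385 of all 10930 genes. Mybl2, a cell cycle factor, was higher by 0.71 and Tfcp2l1 by 0.66. Tfcp2l1 measured 11.31 and 11.31 in shDnmt3L3, 10.28 and 10.34 in shDnmt3L1, 11.07 and 10.94 in shDnmt3L2, and 10.94 and 11.0 in shGFP, so shDnmt3L3 was highest and shDnmt3L1 lowest. The Krüppel-like factor gene Klf4 differed by 0.38, and by only 0.03 from shDnmt3L2 (limma adjusted p = 0.247 under that block). Against shDnmt3L1 alone 8 naive factors were called higher and 2 lower, and against shDnmt3L2 alone 2 higher and 5 lower. Dppa3, a maternal and germ cell protein, was called lower, at 7.44 and 7.20 in shDnmt3L3, 8.58 and 8.58 in shDnmt3L1, 8.39 and 8.41 in shDnmt3L2, and 7.74 and 7.68 in shGFP (-1.17 ± 0.08).

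**Figure D4:**
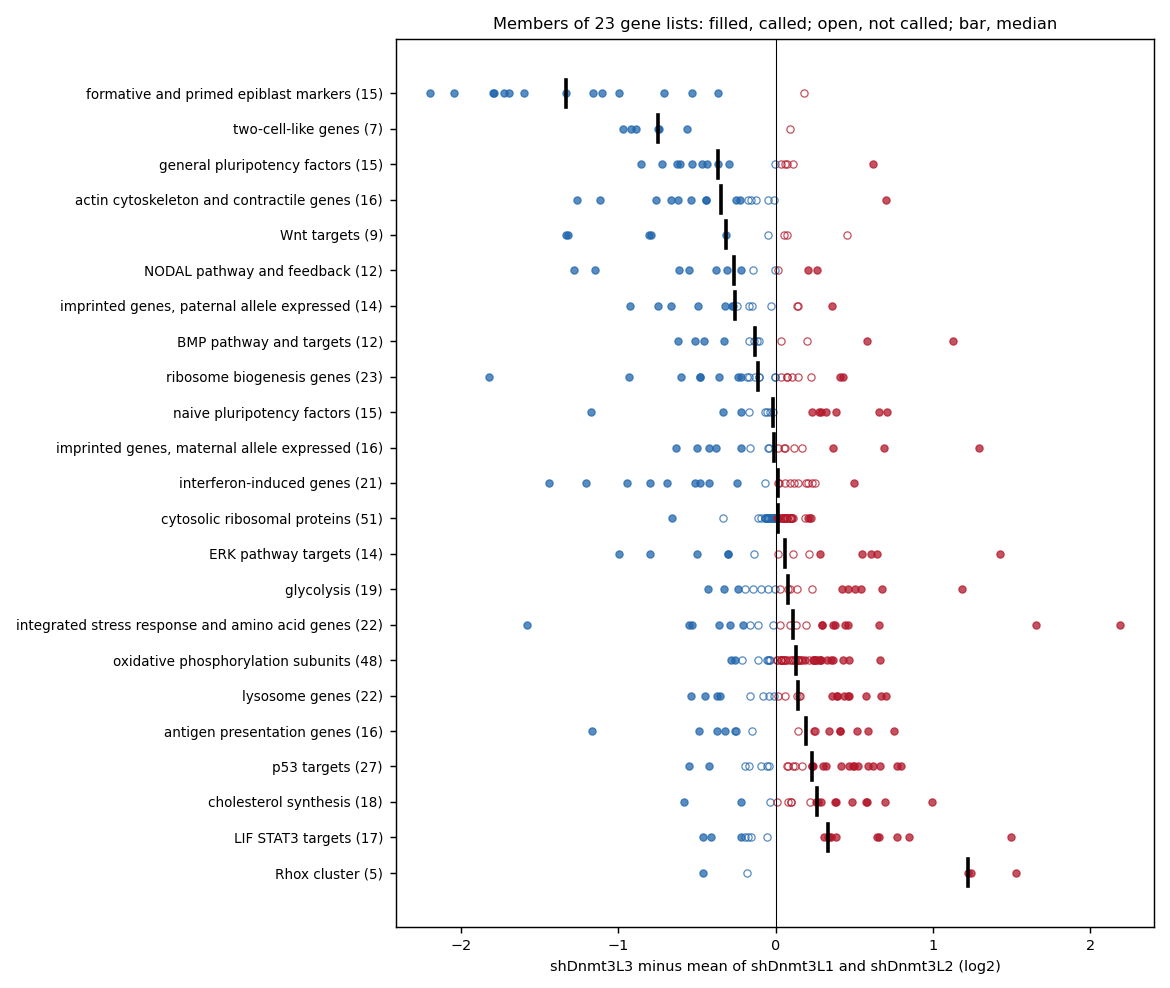
Difference of shDnmt3L3 minus the mean of shDnmt3L1 and shDnmt3L2 (x axis, log2) for the measured members of 23 gene lists (rows, number of members in brackets), sorted by median (black bar). Filled points were called and open points were not; formative and primed markers stand lowest with 14 of 15 called lower, while cytosolic ribosomal proteins lie near 0 with 3 of 51 called.

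The count of LIF and STAT3 targets called depended on which weaker hairpin was used. Of 17 measured, 10 were called higher and 3 lower (median 0.33), but only 3 higher and 2 lower with the hairpin as a random block. Socs3, the feedback inhibitor of the LIF receptor pathway, measured 10.72 and 10.70 in shDnmt3L3, 8.39 and 8.37 in shDnmt3L1, 10.07 and 10.03 in shDnmt3L2, and 9.78 and 9.73 in shGFP (1.5 ± 0.06, SE, limma, adjusted p = 1.9e-06). All groups were separate, and shDnmt3L3 was the highest. Bcl3 (0.85) and Mras (0.77) differed from shDnmt3L1 by 1.53 and 1.46 but from shDnmt3L2 by 0.17 and 0.08, and under that block limma's adjusted p was 0.137 and 0.167. Against shDnmt3L1 alone 10 members were called higher and 2 lower, and against shDnmt3L2 alone 4 higher and 6 lower. The AP-1 gene Jun (-0.46, detected on 1 of 2 shDnmt3L3 arrays) and the cytokine inhibitor gene Socs2 (-0.41, not called without shDnmt3L3 replicate 1) were called lower.

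NODAL ligand and feedback genes were more often called lower than higher. Of 12 genes of the pathway, 7 were called lower and 2 higher (median -0.27). Lefty1, a secreted NODAL inhibitor that NODAL itself induces, measured 9.62 and 9.53 in shDnmt3L3, 10.94 and 10.94 in shDnmt3L1, 10.82 and 10.73 in shDnmt3L2, and 9.62 and 9.66 in shGFP (-1.29 ± 0.07, SE, limma, adjusted p = 3.86e-06). The deep knockdown thus overlapped the control, and the weaker ones lay above both. Lefty2 differed in the same way, by -1.15, with 0.23 above shGFP in shDnmt3L3 and 1.38 above it in the weaker hairpins. The ligand gene Nodal (-0.62) and the SMAD corepressor gene Skil (-0.55) were also called lower. With the hairpin as a random block the counts were 4 lower and 0 higher.

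Of 9 Wnt targets measured, 5 were called lower and 0 higher (median -0.31), and 3 lower with the hairpin as a random block. Notum, a secreted Wnt deacylase, measured 6.27 and 6.10 in shDnmt3L3, 7.36 and 7.24 in shDnmt3L1, 7.70 and 7.72 in shDnmt3L2, and 7.69 and 7.84 in shGFP (-1.32 ± 0.08). The feedback scaffold gene Axin2 differed by -0.81. Lef1, a nuclear partner of beta-catenin, was below background on both shDnmt3L3 arrays and at least 1.85-fold lower. Sp5 was not detected there either and was at least 1.60-fold lower (limma adjusted p = 0.056 under that block). Other targets of the pathway, such as Lgr5 and T, were not among the genes measured.

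ERK targets divided evenly, with 5 of 14 called higher and 5 lower (median 0.06), and 3 and 2 with the hairpin as a random block. Among the ETS factors of the pathway, the difference was 1.43 for Etv4 and -1.0 for Etv5. Etv4 measured 8.32 and 7.99 in shDnmt3L3, 6.18 and 6.17 in shDnmt3L1, 7.17 and 7.38 in shDnmt3L2, and 8.17 and 8.19 in shGFP, so shDnmt3L3 overlapped the control. Etv5 lay below shGFP with shDnmt3L3, by -0.64 in the difference, and above it with the weaker hairpins, by 0.36. The immediate early genes Ier3 (0.65) and Fos (0.61) were called higher, and the cyclin gene Ccnd1 (-0.80) lower.

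In the BMP pathway the ligand genes were higher, Bmp4 by 1.13 and Bmp7 by 0.58, whereas the 4 ID genes, which encode inhibitors of basic helix-loop-helix factors and are BMP targets, were all called lower. The random block left 2 of these ID genes called. Bmp4 measured 8.88 and 8.76 in shDnmt3L3, 7.65 and 7.45 in shDnmt3L1, 7.97 and 7.71 in shDnmt3L2, and 9.04 and 9.0 in shGFP, and the other Bmp7 probe gave -0.11. Id2 differed by -0.46 (not called without shDnmt3L3 replicate 2) and Id4 was at least 1.30-fold lower. Id1 (-0.33) and Id3 (-0.52) were not called with the hairpin as a random block (limma adjusted p = 0.0645 and 0.0779), and the other Id2 probes gave 0.12 and -0.18.

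The reproductive homeobox cluster on the X chromosome held 3 of 5 measured members that were higher with shDnmt3L3, and all 3 stayed below shGFP. Rhox5 measured 10.13 and 9.99 in shDnmt3L3, 8.58 and 8.53 in shDnmt3L1, 8.54 and 8.49 in shDnmt3L2, and 11.30 and 11.37 in shGFP (1.53 ± 0.07, SE, limma, adjusted p = 2.58e-06). Rhox9 followed the same order, at 8.26 and 8.13 in shDnmt3L3, 6.81 and 6.96 in shDnmt3L1, 7.09 and 6.94 in shDnmt3L2, and 9.94 and 9.93 in shGFP (1.24 ± 0.08). Rhox6 differed by 1.23 and was detected on 1 of 2 arrays of each weaker hairpin. In all 3 the mean of the deep knockdown lay between those of the weaker ones and the control. Rhox10 was called lower (-0.46) and Rhox13 was not called (-0.18).

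Of 11 genes of the methylation machinery, 3 were called higher and 4 lower, and 2 and 2 with the hairpin as a random block. Dnmt1, the maintenance enzyme, was not called (0.03), and its partner gene Uhrf1 was higher by 0.40. The methyl-CpG reader genes Mbd2 (0.42) and Zbtb38 (-0.67) moved apart. Of 10 TET and demethylation genes, 5 were called higher and 1 lower, with the uracil glycosylase gene Smug1 at 0.74, the thymine glycosylase gene Tdg at 0.43 (not called without shDnmt3L3 replicate 2) and Gadd45b at 0.98. Gadd45g measured 7.51 and 7.33 in shDnmt3L3, 8.85 and 8.84 in shDnmt3L1, 8.81 and 8.70 in shDnmt3L2, and 7.25 and 7.24 in shGFP (-1.38 ± 0.08), so it stood near the control with shDnmt3L3 and well above it with the weaker hairpins.

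Genes transcribed in 2-cell embryos and in rare stem cells that resemble them were lower. Of 7 measured, 6 were called lower and 0 higher (median -0.75), a count that did not change with the hairpin as a random block. Zscan4c, a zinc finger gene of the 2-cell stage, measured 8.80 and 9.06 in shDnmt3L3, 9.79 and 9.77 in shDnmt3L1, 9.56 and 9.57 in shDnmt3L2, and 8.13 and 8.0 in shGFP (-0.74 ± 0.09, SE, limma, adjusted p = 0.000223). Tcstv3 measured 7.35 and 7.32 in shDnmt3L3, 8.25 and 8.26 in shDnmt3L1, 8.23 and 8.29 in shDnmt3L2, and 7.12 and 7.11 in shGFP (-0.92 ± 0.06). In both genes shDnmt3L3 lay between the weaker hairpins and the control. Gm5662 (-0.97) and Tcstv1 (-0.89) gave similar differences, and the members share close relatives in multigene families, so a probe may not tell copies apart. In these bulk cultures, fewer cells of a type and less RNA per cell cannot be told apart.

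Germ cell lists held calls in both directions. Of 15 primordial germ cell genes, 8 were called lower and 2 higher, with Ifitm3 at -0.56 and the transcription factor gene Tfap2c at 0.58. Of 16 germline genes that DNA methylation is known to silence, 6 were called higher and 4 lower, and 4 and 2 with the hairpin as a random block. The meiotic gene Hormad2 differed by -0.99, the piRNA pathway genes Mov10l1 by 0.98 and Piwil2 by 0.42 (not called without shDnmt3L3 replicate 1), and the meiotic cohesin gene Smc1b by 0.42. Smc1b measured 7.86 and 7.80 in shDnmt3L3, 7.58 and 7.61 in shDnmt3L1, 7.23 and 7.20 in shDnmt3L2, and 6.28 and 6.15 in shGFP, with no overlap between groups.

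Among imprinted genes expressed from the paternal allele, 7 of 14 were called lower and 1 higher (median -0.26), and 5 and 0 with the hairpin as a random block. Snurf, at the Snrpn locus, measured 11.01 and 11.01 in shDnmt3L3, 11.91 and 12.02 in shDnmt3L1, 11.92 and 11.89 in shDnmt3L2, and 11.76 and 11.68 in shGFP (-0.93 ± 0.07, SE, limma, adjusted p = 1.94e-05). Peg3, a zinc finger gene, differed by -0.67, Rtl1 by -0.75 and the NOTCH ligand homologue gene Dlk1 by -0.49. Of 16 genes expressed from the maternal allele, 3 were called higher and 5 lower, and 3 and 3 under that block. Phlda2, a growth restraining gene of the placenta, differed by 0.69, the noncoding RNA gene Rian by -0.63 and the adaptor gene Grb10 by -0.50. Slc22a18 differed by 1.29, but its other probe gave -0.06.

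Stress genes moved in part. Of 22 genes of the integrated stress response and amino acid supply, 9 were called higher and 6 lower (median 0.11). Ddit3, the stress factor CHOP, measured 9.38 and 9.21 in shDnmt3L3, 6.95 and 7.06 in shDnmt3L1, 7.20 and 7.21 in shDnmt3L2, and 7.95 and 7.81 in shGFP (2.19 ± 0.08, SE, limma, adjusted p = 1.21e-06), and its other probe gave 2.03. Nupr1 measured 10.29 and 10.31 in shDnmt3L3, 8.31 and 8.38 in shDnmt3L1, 8.91 and 8.98 in shDnmt3L2, and 9.05 and 9.0 in shGFP (1.66 ± 0.06). Both lay above all 6 other arrays. Atf4, the factor that drives the response, measured 11.42 and 11.29 in shDnmt3L3, 10.64 and 10.65 in shDnmt3L1, 11.25 and 11.37 in shDnmt3L2, and 11.29 and 11.50 in shGFP, so it was low only with shDnmt3L1. With the hairpin as a random block limma's adjusted p was 0.22, and 3 of the 22 genes were called higher and 3 lower. Against shDnmt3L1 alone 9 were called higher and 5 lower, and against shDnmt3L2 alone 4 higher and 9 lower. Slc7a3, a cationic amino acid transporter, differed by -1.58, while its other probe gave 0.07. Of 17 endoplasmic reticulum chaperones, 3 were called higher and 6 lower.

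The start regions of the 19 stress response genes with a RefSeq sequence were searched on both strands for TGATGNAA, the core of the element that ATF4 and CHOP bind. It was found in 5 of the 19 and in 2.21% of the 8840 tested genes with a sequence. The list was written from genes of this response, so its share of matches is no result of these arrays. The 5 genes differed by 1.66 (Nupr1), 0.66 (Slc1a4), 0.44 (Chac1), 0.29 (Asns) and -0.16 (Trib3, not called). Chac1 differed by 1.28 from shDnmt3L1 and by -0.40 from shDnmt3L2, and Asns by 0.52 and 0.07. The sequences of Nupr1 (chr7:126625421-126625720, minus strand) and of the amino acid transporter gene Slc1a4 (chr11:20332664-20332963, minus strand) carry the match in capitals on the opposite strand, 110 and 4 bases before the start. They are printed because these genes had the largest differences of the 5. A match describes letters only and is no evidence of binding.
Nupr1: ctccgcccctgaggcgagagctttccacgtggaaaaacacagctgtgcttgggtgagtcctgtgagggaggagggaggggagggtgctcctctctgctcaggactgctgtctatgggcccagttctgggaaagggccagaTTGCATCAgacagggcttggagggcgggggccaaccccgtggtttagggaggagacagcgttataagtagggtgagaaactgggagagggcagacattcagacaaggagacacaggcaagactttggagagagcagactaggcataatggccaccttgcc
Slc1a4: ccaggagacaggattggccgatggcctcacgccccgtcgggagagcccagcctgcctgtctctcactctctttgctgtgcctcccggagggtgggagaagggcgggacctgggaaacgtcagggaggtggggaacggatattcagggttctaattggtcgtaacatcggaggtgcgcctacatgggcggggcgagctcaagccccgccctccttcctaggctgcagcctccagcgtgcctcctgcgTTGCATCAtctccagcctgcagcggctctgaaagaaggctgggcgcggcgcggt

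Targets of the tumour suppressor p53 were mostly higher where they were called, with 15 of 27 higher and 2 lower (median 0.23), and with the hairpin as a random block 10 higher and 2 lower. Cdkn1a, the cell cycle inhibitor p21, measured 9.92 and 10.01 in shDnmt3L3, 9.26 and 9.30 in shDnmt3L1, 9.13 and 9.06 in shDnmt3L2, and 8.73 and 8.74 in shGFP (0.77 ± 0.07, SE, limma, adjusted p = 4.25e-05). No groups overlapped. Ephx1, an epoxide hydrolase, differed by 0.79, the DNA repair genes Ddb2 by 0.66 and Polk by 0.62, and Sesn2, also a stress response gene, by -0.55. The D-type cyclin genes Ccnd1 (-0.80) and Ccnd2 (-0.80) were called lower. Of 28 DNA replication genes 11 were called higher and 5 lower, and 6 and 1 under that block, with the primase gene Prim1 at 0.69, the ribonucleotide reductase gene Rrm2 at 0.63 and the thymidylate synthase gene Tyms at -0.64. Of 21 mitosis genes 5 were called higher and 3 lower, and 2 and 1 under the block.

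Genes of the actin cytoskeleton were lower. Of 16 measured, 10 were called lower and 1 higher (median -0.35), and 8 and 1 with the hairpin as a random block. Acta2, smooth muscle actin, measured 6.82 and 6.75 in shDnmt3L3, 8.31 and 8.24 in shDnmt3L1, 7.69 and 7.93 in shDnmt3L2, and 5.93 and 5.96 in shGFP (-1.26 ± 0.08, SE, limma, adjusted p = 1.07e-05). Cnn2, an actin-binding calponin, measured 5.37 and 5.63 in shDnmt3L3, 6.66 and 6.73 in shDnmt3L1, 6.45 and 6.65 in shDnmt3L2, and 7.13 and 7.39 in shGFP (-1.12 ± 0.11). Acta2 in shDnmt3L3 thus lay above the control and Cnn2 below it. The adhesion protein genes Zyx (-0.76) and Flna (-0.66) were called lower, and Tagln2 (0.70) higher. Actb, beta-actin, differed by -0.71, while 2 of its other probes were called in the opposite direction. Ccn2, a matricellular gene that responds to actin tension through YAP, measured 7.03 and 6.81 in shDnmt3L3, 8.60 and 8.59 in shDnmt3L1, 8.48 and 8.50 in shDnmt3L2, and 8.95 and 8.88 in shGFP (-1.62 ± 0.08).

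The CArG box, bound by serum response factor, was searched for on both strands in the 16 start regions of these genes and found in 3, Cnn2, Myl9 and Vcl, beside 1.44% of the 8840 tested genes with a sequence. Myl9, a myosin light chain, was below background on both shDnmt3L3 arrays and at least 1.10-fold lower, and Vcl, vinculin, differed by -0.23 (limma adjusted p = 0.125 with the hairpin as a random block). The list was written by function, so its share of matches is no result of these arrays, and a match is no evidence of binding. The sequences of Cnn2 (chr10:79988350-79988649, plus strand) and Myl9 (chr2:156775214-156775513, plus strand) are printed with the box in capitals, 56 and 161 bases before the start.
Cnn2: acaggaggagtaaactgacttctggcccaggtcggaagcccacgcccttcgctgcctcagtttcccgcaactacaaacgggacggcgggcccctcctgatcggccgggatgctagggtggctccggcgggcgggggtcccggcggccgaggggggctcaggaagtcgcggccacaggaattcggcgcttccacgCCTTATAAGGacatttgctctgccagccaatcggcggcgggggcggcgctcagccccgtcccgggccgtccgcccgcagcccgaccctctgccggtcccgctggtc
Myl9: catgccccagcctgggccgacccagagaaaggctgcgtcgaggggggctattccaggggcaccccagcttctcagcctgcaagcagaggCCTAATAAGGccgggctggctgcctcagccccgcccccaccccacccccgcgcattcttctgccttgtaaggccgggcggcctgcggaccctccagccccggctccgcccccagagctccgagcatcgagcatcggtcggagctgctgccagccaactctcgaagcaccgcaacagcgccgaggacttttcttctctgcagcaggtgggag

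Of 21 interferon-induced genes 9 were called lower and 1 higher, and 7 and 1 with the hairpin as a random block, while the median was 0.01. Irf1, a transcription factor of the response, measured 8.94 and 9.06 in shDnmt3L3, 10.28 and 10.28 in shDnmt3L1, 10.06 and 10.18 in shDnmt3L2, and 10.47 and 10.28 in shGFP (-1.20 ± 0.08, SE, limma, adjusted p = 1.3e-05). The guanylate-binding protein gene Gbp2 differed by -1.44, detected on 1 of 2 shDnmt3L3 arrays, and the RNA sensor gene Ddx58 by -0.80. Of 16 antigen presentation genes 7 were called higher and 5 lower, and 3 and 2 under that block. The class I heavy chain genes H2-K1 (0.75) and H2-D1 (0.52), close relatives whose probes may share signal, were higher, and the immunoproteasome gene Psmb8 was lower (-1.17, other probe -0.20).

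Metabolic lists had small medians, and 47.4% of the glycolysis genes were called in either direction beside 43.5% of all genes. Of 19 glycolysis genes 6 were called higher and 3 lower (median 0.08), or 6 and 1 with the hairpin as a random block, and the largest difference was that of the hexokinase gene Hk1, at 6.98 and 6.91 in shDnmt3L3, 6.07 and 5.77 in shDnmt3L1, 5.57 and 5.61 in shDnmt3L2, and 4.89 and 5.11 in shGFP (1.19 ± 0.10). Of 19 hypoxia genes 8 were called higher and 6 lower, and 4 and 2 with the hairpin as a random block. Vegfa, the vascular growth factor, measured 8.99 and 8.93 in shDnmt3L3, 7.40 and 7.32 in shDnmt3L1, 7.58 and 7.41 in shDnmt3L2, and 7.45 and 7.44 in shGFP (1.53 ± 0.07), and stood alone with shDnmt3L3. The histone demethylase gene Kdm3a, also induced by hypoxia, moved the other way, at 9.66 and 9.47 in shDnmt3L3, 10.92 and 10.90 in shDnmt3L1, 10.96 and 10.99 in shDnmt3L2, and 10.56 and 10.62 in shGFP (-1.37 ± 0.07).

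Of 18 cholesterol synthesis genes 10 were called higher and 2 lower (median 0.26), with the sterol oxidase gene Msmo1 at 0.99, the sterol carrier gene Stard4 at 0.69 and the isomerase gene Ebp at -0.58. The random block left 5 higher and 1 lower. With shDnmt3L2 alone as the other side 12 were called higher, and with shDnmt3L1 alone 4. Scd1, a fatty acid desaturase, differed by 0.98. Of 22 lysosome genes 9 were called higher and 4 lower, among them the membrane protein gene Cd63 (0.67) and the sialidase gene Neu1 (0.57). Of 48 subunits of oxidative phosphorylation 13 were called higher and 2 lower, and 3 and 1 with the hairpin as a random block, and the share called in either direction, 31.2%, was below the 43.5% of all genes. Cytosolic ribosomal proteins had 2 of 51 higher and 1 lower, which was Rpl30 (-0.66). Of 23 ribosome biogenesis genes 8 were called lower and 2 higher (5 and 2 with the random block), with nucleolin (Ncl) at -0.93 and the box C/D factor gene Nop58 at -0.60. Their share called in either direction, 43.5%, was that of all genes.

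Of 16 epithelial junction genes 4 were called lower and 3 higher (median -0.06), and 9 were not called. The share called, 43.8%, was near the 43.5% of all genes. Esrp1, an epithelial splicing factor, measured 8.79 and 8.79 in shDnmt3L3, 10.01 and 10.01 in shDnmt3L1, 9.73 and 9.66 in shDnmt3L2, and 9.11 and 8.97 in shGFP (-1.06 ± 0.07). Grhl2, a grainyhead factor of epithelia and of the formative epiblast, differed by -1.16, and the recycling GTPase gene Rab25 by -0.93. Krt19 differed by 0.95. Of 11 mesenchymal transition genes 2 were called higher and 3 lower, and 1 in each direction under the random block. Among matrix genes, the adhesive protein gene Tgfbi (0.95) and the protease inhibitor gene Timp1 (0.77) were higher and Timp3 lower (-0.61, other probe -0.21).

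Some of the other lists had medians near that of all genes, 0.01, and some did not. Of 28 Polycomb components 6 were called higher and 8 lower (median -0.02), of 16 cytosolic heat shock genes 4 higher and 5 lower (median -0.04), and of 16 cyclins and cell cycle inhibitors 3 in each direction (median 0.02). The hairpin as a random block left 3 and 4, 2 and 5, and 1 and 2 of these. Few tRNA synthetases were called, with 2 of 19 higher and 2 lower (1 and 0 under that block), against 43.5% of all genes in either direction. Of 19 NRF2 and glutathione genes 4 were called higher and 2 lower (median 0.14), against 2 and 2 under that block. Of 11 fatty acid synthesis genes 3 were called higher and 1 lower (median 0.15), against 2 and 1. Basement membrane genes had 3 of 13 higher and 5 lower (median -0.11). Interstitial matrix genes had 7 of 16 higher and 3 lower (median 0.21), and 13 housekeeping genes had 5 higher and 2 lower (median 0.10). Under that block these were 1 and 4 for basement membrane, 3 and 2 for interstitial matrix and 1 and 2 for housekeeping genes.

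Markers of other cell types changed without a shared direction. Primitive endoderm markers had 3 of 10 called higher and 3 lower (1 and 3 with the hairpin as a random block), with the endocytic genes Dab2 at -1.34 and Lrp2 at -1.29 and Amn at 0.89, and their summed intensity was 1355 and 1370 in shDnmt3L3, 1446 and 1414 in shDnmt3L1, 1339 and 1363 in shDnmt3L2, and 1217 and 1225 in shGFP. Gata4, Gata6, Sox17 and Pdgfra were not among the genes measured. Mesoderm markers had 4 measured, with Gata2 at least 2.10-fold higher and not detected in any other group, Tbx6 at 0.64, Bmp4 at 1.13 and Evx1 below background with shDnmt3L3 and at least 1.05-fold lower (not called without shDnmt3L3 replicate 1). Gata2 passed the probe filter only through shDnmt3L3, so it could only come out higher there and is no support for a change of these markers. The summed intensity of the mesoderm markers was 597.6 and 568.8 in shDnmt3L3, 285.8 and 259.4 in shDnmt3L1, 336.5 and 293.6 in shDnmt3L2, and 623.4 and 604.2 in shGFP. Most of that sum was Bmp4, without which it was 125.2 and 134.0 in shDnmt3L3, 84.42 and 84.09 in shDnmt3L1, 86.25 and 84.94 in shDnmt3L2, and 98.85 and 92.15 in shGFP. The markers left are Gata2, Tbx6 and Evx1. As Gata2 was not detected outside shDnmt3L3 and Evx1 not in it, these sums hold much background signal. T, Mesp1 and Kdr were not among the genes measured. Neuroectoderm markers had 2 of 7 higher and 3 lower, with Gli3, a mediator of hedgehog signals, at -1.11 and summed intensities of 612.5 and 652.7 in shDnmt3L3, 827.9 and 808.6 in shDnmt3L1, 830.8 and 840.1 in shDnmt3L2, and 624.1 and 623.3 in shGFP. Sox1 and Pax6 were not measured. Trophectoderm markers had 3 of 11 higher, Gata2 again among them, and 4 lower, with the galectin gene Lgals3 at -1.19. Their summed intensities were 3914 and 3912 in shDnmt3L3, 4163 and 4007 in shDnmt3L1, 4659 and 4527 in shDnmt3L2, and 3563 and 3803 in shGFP. Without the brightest of them, Tfap2c, the sums were 1666 and 1723 in shDnmt3L3, 2710 and 2696 in shDnmt3L1, 3095 and 2913 in shDnmt3L2, and 2146 and 2334 in shGFP. Cdx2 and Elf5 were not measured. Fibroblast and feeder cell markers had 2 of 6 higher and 2 lower (0 and 1 with the random block), with summed intensities of 1777 and 1683 in shDnmt3L3, 2006 and 2028 in shDnmt3L1, 1457 and 1558 in shDnmt3L2, and 923.5 and 941.8 in shGFP. The collagen genes Col1a1, Col1a2 and Col3a1 were not measured. Of the blood markers, only Cd34, Hbb-bs and Hba-a1 were measured and Ptprc was not. The part of any such cells in the differences was not tested.

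By chromosome, the share of genes called lower ran between 17.1% and 26.5% on the autosomes and was 31.7% of 357 genes on the X chromosome, where 13.4% were called higher. The median difference of the X-linked genes was -0.07 beside 0.01 for all genes. The autosomes' share of higher calls ran between 14.7% and 28.7%. These are descriptions, since neighbouring genes are not independent.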

How the data were processed

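RNA of 8 samples was measured on Illumina mouse expression BeadChips, 2 in each of 4 groups taken from the sample labels. The deposited table of non-normalized values holds 1 intensity per probe and sample, summarized in GenomeStudio 2011.1 per the submitters' processing notes. Beside each intensity the deposited table gives a detection p-value, whose columns have no name and were read by position. A table of intensities processed by the authors, with unstated normalization, was used as an alternative.

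Intensities were background-corrected by normexp with the detection p-values, quantile-normalized with an offset of 16 and log2-transformed (neqc, limma 3.58.1, R 4.3.3). Of 45281 probes, 34885 were annotated to 1 gene, 18 to several and 10378 to none in the table used, with symbols updated through RefSeq (GRCm38.p6), which also gave the start regions. A probe entered where 2 or more arrays had a detection p under 0.05, which 20754 probes met, 17301 of them with 1 gene. The brightest probe stood for each of 10930 genes. Of 2892 other probes of called genes, 84.3% had the same sign, and of 1462 pairs with both called 72 had opposite signs. Group means of all 8 arrays were fitted with limma (4 residual and 4.64 prior degrees of freedom). The contrast was shDnmt3L3 minus the mean of shDnmt3L1 and shDnmt3L2, two-sided, with Benjamini-Hochberg adjustment over 10930 genes. For a gene below background on every array of a side, "at least N-fold" divides the bright side's mean by a floor, which on each array is the lowest detected signal or, where larger, the signal of the probe. Summed marker intensities are on the linear scale. In data simulated for this contrast with 10930 genes, 76 of 100 genes changed 1.5-fold and 94 of 100 changed 2-fold were recovered, and 6 unchanged genes were called. Far fewer genes were changed there than were called in the data. The noise was that of the duplicate arrays, so these counts do not cover variation between cultures or hairpins.

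The members and gene lists were chosen with earlier results of these data known. Named genes were Dnmt3l, the 15 lowest and 15 highest called genes whose shDnmt3L3 arrays lay outside all arrays of the weaker hairpins, and, of each list, up to 4 called members per direction with defining members not called. Further genes and the printed start regions were chosen after their values were seen. Alternatives changed the scaling, background correction, offset, probe filter, probe choice, arrays in the fit and blocks, and left out each array in turn. No label places an array on a chip, and a chip block was not fitted.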

Additional observations from a re-analysis of the deposited data

Results flagged for a closer look

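In 32 of the 163 genes named above, shDnmt3L3 and the weaker hairpins lay on opposite sides of shGFP. The difference between them, which limma tested directly, was called in each. Most of the 163 were named for large or called differences, some after their values were seen. The share of all genes that meets the same rule was not computed, so the count is no result about these genes as a group. Both sides are set against the same 2 shGFP arrays. Positions are those of 1 probe a gene. For Kdm3a, Snurf, Zic2, Zfp608, Pou5f1, Rab25, Etv5, Car14 and Aph1a (-0.004) another probe did not repeat the opposite sides. The other probes of Dnmt3b, Peg3, Ccnd1 and Ddit3 did.

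Of these genes 23 were below shGFP with shDnmt3L3, by differences of -0.25 to -1.78, and above it in the mean of shDnmt3L1 and shDnmt3L2, by 0.21 to 1.12. The transcription and chromatin genes among them, with the difference of shDnmt3L3 from the weaker hairpins, were Zic2 (-2.20), Otx2 (-2.05), Vrtn (-1.98), Zfp608 (-1.84), Sall2 (-1.80), Dnmt3b (-1.79), Pou3f1 (-1.60), Kdm3a (-1.37), Etv5 (-1.0), Peg3 (-0.67) and Pou5f1 (-0.61). The others were Dpp4 (-2.53), Aph1a (-2.09), Map7d3 (-1.96), Fgf8 (-1.81), Car14 (-1.73), Fgf5 (-1.70), Dppa3 (-1.17), Esrp1 (-1.06), Rab25 (-0.93), Snurf (-0.93), Ccnd1 (-0.80) and Zyx (-0.76). The values of Vrtn, Aph1a and Fgf5 are fitted differences for probes below background with shDnmt3L3 and are no measured fold. Zic2 and Zfp608 were detected with shDnmt3L3 but near background. The Zfp608 value is that of 1 of 3 probes and was nearer to 0 without some arrays of the weaker hairpins.

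The remaining 9 were above shGFP with shDnmt3L3, by 0.47 to 1.42, and below it with the weaker hairpins, by -0.38 to -1.0. They were Scd1 (0.98), Mov10l1 (0.98), Msmo1 (0.99), Cavin1 (1.58), Cfap45 (1.62), Nupr1 (1.66), Insl3 (1.81), Ppp1r14d (1.82) and Ddit3 (2.19).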

How the results depend on the processing

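Over 20 alternatives and the 163 genes named, 3183 of 3228 values kept their direction and their side of the threshold. Most of these genes were named because they were called, so this share does not describe all genes. A gene that an alternative did not measure gave no value. With the hairpin as a random block (consensus correlation 0.249), 2827 genes were called, 1442 higher and 1385 lower. Otherwise the count was 3860 to 5188, and 3339 to 4718 when 1 array was left out, lowest without shDnmt3L3 replicate 1. Dnmt3l stayed called throughout. The replicate numbers did not pair the arrays (correlations of deviations -0.01 to 0.037), and with the replicate block 4667 genes were called and Dnmt3l differed by -1.37. Chac1 reversed to -0.401 against shDnmt3L2 alone, where Trib3 was called lower (-0.564). Aph1a depended on which of its probes was brightest: it was 0.039 and 0.036 without shDnmt3L1 replicate 1 and shDnmt3L2 replicate 2, with a range of -2.115 to 0.039 when 1 array was left out. Calls were lost without shDnmt3L3 replicate 1 for Atf4, Id1, Socs2, Piwil2 and Evx1, and without shDnmt3L3 replicate 2 for Asns, Klf4, Id2, Id3 and Tdg, where Rhox13 was called (-0.32). Vcl lost its call without either of them or any array of the weaker hairpins. With the mean of detected probes Actb was not called (-0.181) and Sox2 was (0.274). Zfp608 also depended on the probe and was -1.869 to -0.745 when 1 array was left out. The cause of these changes was not tested. Duplicate arrays and 1 hairpin per depth limit every comparison, and signals near background give only bounds.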
